A study of Rattus norvegicus with 8 samples.

Results

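The vacuolar proton ATPase (V-ATPase) genes described here are Atp6v0a1, Atp6v0b, Atp6v0c and Atp6v0d1 of the membrane sector V0, and Atp6v1a, Atp6v1b2, Atp6v1c1, Atp6v1d, Atp6v1e1 and Atp6v1h of the cytosolic sector V1. Each was taken by function, with earlier results of these data known. Each was read through every non-control probe of the array that carries an accession of one of its rat RefSeq transcripts. The 10 genes had 13 probes, with a pair each for Atp6v0c, Atp6v1a and Atp6v1h. All 10 were among the 13464 features tested, where a feature is a gene, or an accession without a symbol, represented by its brightest probe.

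Expression was measured in NR8383 cells, an unmodified line of alveolar macrophages that came from the lung lavage of a normal rat. The ZnO 16 group was exposed to zinc oxide (ZnO) at 16 µg/mL and the ZnO 4 group at 4 µg/mL, each for 4 h and each with 4 arrays that the design calls biological replicates. Per the descriptions, ZnO 16 cells had gone through 200 passages and ZnO 4 cells through 20, and each dose was hybridised on its own slide in its own scan, so dose, passage, slide and scan cannot be told apart. All cultures shared a serum-containing medium with penicillin, streptomycin and amphotericin B, in which part of the cells adhere and part float. Unexposed cells were not analysed here, so every difference is ZnO 16 minus ZnO 4 and none is relative to unexposed cells. The form and particle size of the ZnO are not given in the sources used here.

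The V-ATPase is a rotary pump that uses ATP to move protons into lysosomes, endosomes and phagosomes. Its V1 sector hydrolyses ATP in a head of A and B subunits, and its V0 sector carries protons through the membrane between the a subunit and a ring of c subunits, while the stalk subunits C, E and G and the subunit H hold the sectors together. In macrophages the acid that it makes activates the proteases that digest engulfed material, and zinc oxide particles dissolve in acid.

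The 4 V0 genes among these 10 were all higher at 16 µg/mL, by 0.65 to 1.02 on the log2 scale, with a median difference of 0.89. This does not hold for all of V0. Outside the 10, Atp6v0a2, Tcirg1, Atp6v0d2, Atp6v0e1 and Atp6v0e2 did not pass the threshold, while the V0-associated Rnasek passed as higher. The 6 V1 genes did not move one way: Atp6v1c1 was higher, Atp6v1a and Atp6v1e1 were lower, and Atp6v1b2, Atp6v1d and Atp6v1h did not pass the threshold, with a median difference of -0.03. A gene passed where limma's moderated test, adjusted by Benjamini-Hochberg over all 13464 features, gave an adjusted p under 0.05. Of all features 41.7% passed, 19.8% higher and 21.9% lower. The 5 of 10 V-ATPase genes that were higher stand beside that 19.8%, and the 2 of 10 that were lower are a share close to the 21.9% of all features. The median difference of the 10 genes was 0.50, against 0.005 over all features. The 10 genes were chosen with earlier results of these data known, so these contrasts with all features are no test of the list. The 10 other tested subunit genes had a median difference of 0.04, with 1 higher and 1 lower. The same 7 genes had doses that did not overlap, 5 higher and 2 lower, where 39.9% of all features had doses that did not overlap, 18.5% higher and 21.4% lower.

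Array brightness and scaling moved with these results. The 75th percentile of the signal, by which each array was scaled, was 374.3, 150.7, 190.1 and 381.2 on ZnO 16 replicates 1 to 4, against 516.0, 312.6, 478.7 and 428.2 on ZnO 4 replicates 1 to 4. After that scaling, 7 probes for the E1A spike-in RNAs of the Agilent system that were well above background on every array differed between the doses by -0.68 to 1.62 on the log2 scale, with a median of 1.19. The spike-in probes did not move together: their differences were -0.68, -0.21, 1.15, 1.19, 1.21, 1.26 and 1.62. The differences of the 5 higher V-ATPase genes lay between -0.21 and 1.15, where no spike-in probe lay. Those of the 2 lower genes lay below -0.68. Without scaling between arrays the median difference of all features was -0.75, and with scaling to the spike-ins it was -0.79. In both settings none of the 5 higher genes passed: limma's adjusted p was 0.568 and 0.584 for Atp6v0a1, the V0 gene with the largest reported difference, and Atp6v1a and Atp6v1e1 still passed as lower. The 5 genes were thus higher relative to the other features of the same arrays, and the part of array brightness and of the spike-ins in the result was not tested.

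Promoter sequence is shown for 3 V0 genes that were higher and for Atp6v1a, the V-ATPase gene with the largest difference, because they differed in opposite directions. RefSeq's promoter table for assembly GRCr8 held 7 of the 10 genes, and Atp6v1b2, Atp6v1c1 and Atp6v1h were without an entry. The window of Atp6v0b, the other higher V0 gene, is not printed because by inspection its letters read as part of a coding exon, and it may not be a promoter. Each line gives the 150 bases before the start that RefSeq lists, read 5′ to 3′ on the gene's strand, and other starts may be in use in these cells. Capitals mark a match to at least 9 of the 10 letters of the CLEAR element, which TFEB-family factors bind at lysosomal genes and which reads CACGTG with GT before it and AC after it.
Atp6v0a1, chr10:86435991-86436140, plus strand: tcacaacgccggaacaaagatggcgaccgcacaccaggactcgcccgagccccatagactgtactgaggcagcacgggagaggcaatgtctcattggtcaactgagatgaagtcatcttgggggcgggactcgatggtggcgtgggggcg
Atp6v0c, chr10:13705843-13705992, minus strand: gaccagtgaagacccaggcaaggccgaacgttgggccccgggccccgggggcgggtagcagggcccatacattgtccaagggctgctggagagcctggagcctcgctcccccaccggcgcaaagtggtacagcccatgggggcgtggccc
Atp6v0d1, chr19:50357249-50357398, minus strand: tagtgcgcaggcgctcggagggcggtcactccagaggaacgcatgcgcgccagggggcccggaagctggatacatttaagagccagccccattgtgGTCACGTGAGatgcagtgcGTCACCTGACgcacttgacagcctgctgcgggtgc
Atp6v1a, chr11:70067352-70067501, plus strand: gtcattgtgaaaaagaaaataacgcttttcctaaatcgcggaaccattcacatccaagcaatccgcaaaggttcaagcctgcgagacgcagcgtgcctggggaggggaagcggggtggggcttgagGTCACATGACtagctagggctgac

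The windows searched ran from 250 bases before to 50 bases after the start, on both strands. The counts over 7 windows include that of Atp6v0b, which held no match. The whole CLEAR element was in 0 of the 7 windows and in 0.23% of the 33469 promoter windows of the table. A match to 9 of 10 letters, a search chosen after the sequences were seen, was in 2 of 7, against 1.57% of all windows. Among other V-ATPase subunit genes it was in 1 of 14 windows. Atp6v0d1 held it at position -54 as GTCACGTGAG and at -35 as GTCACCTGAC, and Atp6v1a held it at position -24 as GTCACATGAC, where -1 is the base before the start. The E-box core CACGTG, which lies inside the CLEAR element, was in the Atp6v0d1 window at position -52, as part of the match at -54, and in 6.42% of all windows. The core of the metal response element was searched as TGCACNC or TGCGCNC for the zinc-sensing factor Mtf1. It was in 1 of the 7 windows, against 24.23% of all windows, and in 4 of 14 windows of other V-ATPase subunit genes. The 1 window was that of Atp6v0d1, with the core at positions -148 and -107, outside the other matches. All of these are matches of letters in a window, and the 9-letter match was found in the window of a higher gene and of a lower one. The share of G and C was 56.0% at the median of the 7 windows (46.7% to 66.0%) and 57.2% without the Atp6v0b window (47.7% to 66.0%), against 51.7% over all windows (quartiles 44.7% and 60.3%). A C followed by G, as at the centre of the CLEAR element, occurred 16 times at the median of the 7 windows (5 to 27). Without the Atp6v0b window that median was 17, against 7 over all windows (quartiles 3 and 19).

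**Figure D1:**
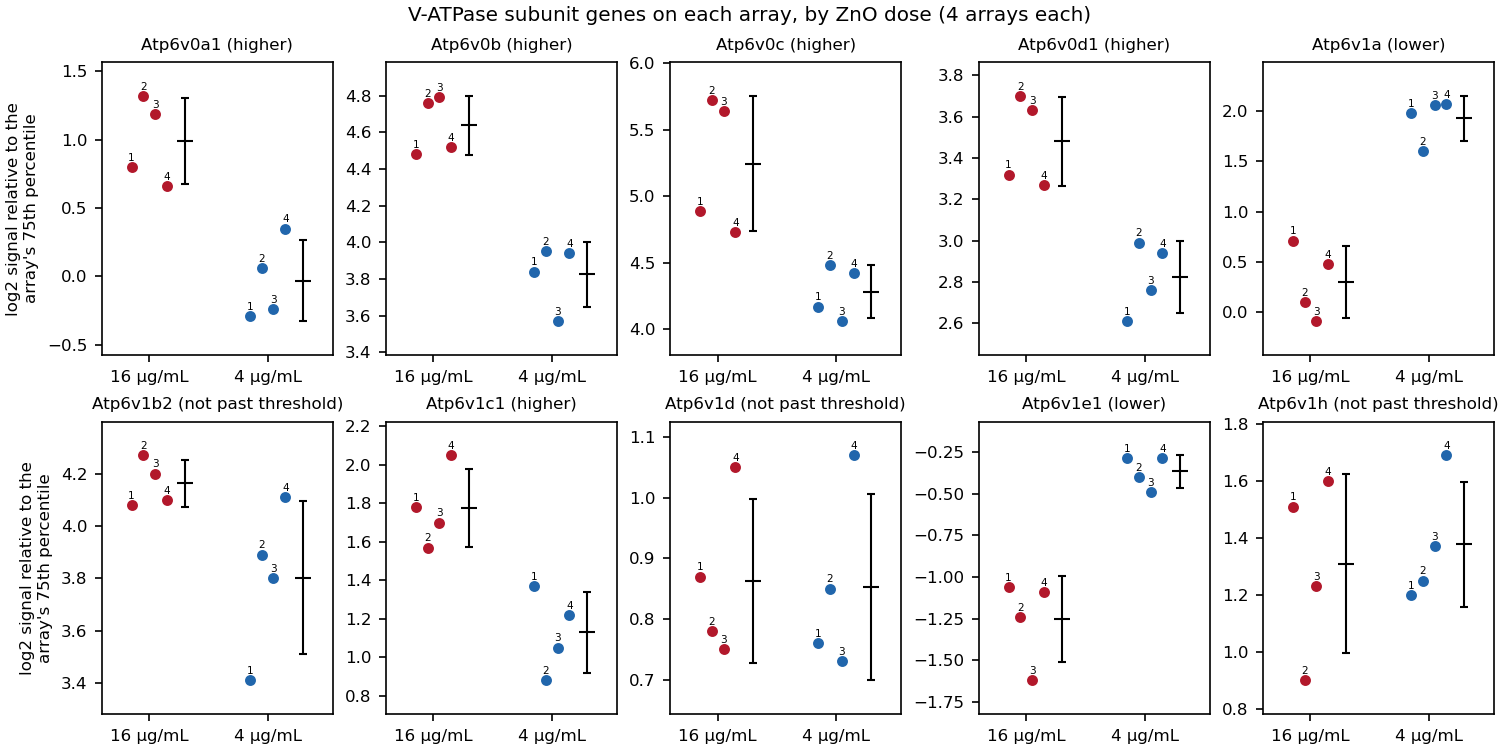
Levels of the 10 V-ATPase genes on each array, with ZnO 16 µg/mL in red on the left and ZnO 4 µg/mL in blue on the right of each panel. The y axis, which differs between panels, is the log2 signal relative to the array's 75th percentile; numbers are replicates and bars are mean and SD (n = 4). The doses do not overlap for the 4 V0 genes, Atp6v1c1, Atp6v1a and Atp6v1e1, and overlap for Atp6v1b2, Atp6v1d and Atp6v1h.

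Among the V0 genes, Atp6v0a1 encodes an a subunit, which lines the proton path beside the c ring. Its level, the log2 signal relative to the array's 75th percentile, was 0.80, 1.32, 1.19 and 0.66 on ZnO 16 replicates 1 to 4 and -0.29, 0.06, -0.24 and 0.35 on ZnO 4 replicates 1 to 4. Every ZnO 16 array was above every ZnO 4 array. The mean level was 0.99 ± 0.31 at 16 µg/mL and -0.03 ± 0.30 at 4 µg/mL (SD, n = 4 each), a difference of 1.02 (SE 0.19, 2.03-fold, limma's adjusted p = 0.00233).

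Atp6v0c encodes the proteolipid of the c ring that carries the protons. The brighter of its probes had levels of 4.89, 5.72, 5.64 and 4.73 at 16 µg/mL and of 4.17, 4.48, 4.06 and 4.42 at 4 µg/mL. The doses did not overlap, and ZnO 16 replicates 2 and 3 stood above the other two ZnO 16 arrays by more than the whole range of the ZnO 4 arrays. The mean level was 5.25 ± 0.51 at 16 µg/mL and 4.28 ± 0.20 at 4 µg/mL, a difference of 0.97 (SE 0.23, 1.95-fold, adjusted p = 0.00747). Atp6v0b encodes the second kind of proteolipid of the ring. Its levels of 4.48, 4.76, 4.79 and 4.52 at 16 µg/mL lay above those of 3.84, 3.95, 3.57 and 3.94 at 4 µg/mL. It averaged 4.64 ± 0.16 at 16 µg/mL and 3.82 ± 0.18 at 4 µg/mL, a difference of 0.81 (SE 0.13, 1.76-fold, adjusted p = 0.000917). The difference between the Atp6v0c and Atp6v0b levels of the same array, in which any scaling cancels, averaged 0.61 ± 0.36 at 16 µg/mL and 0.46 ± 0.08 at 4 µg/mL, so the 2 ring genes differed between the doses by amounts 0.15 apart.

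Atp6v0d1 encodes the d subunit that couples the ring to the central stalk. Its levels of 3.32, 3.70, 3.63 and 3.27 at 16 µg/mL were all above those of 2.61, 2.99, 2.76 and 2.94 at 4 µg/mL. The Atp6v0d1 level averaged 3.48 ± 0.21 at 16 µg/mL and 2.83 ± 0.17 at 4 µg/mL, a difference of 0.65 (SE 0.14, 1.57-fold, adjusted p = 0.00445). For all 4 V0 genes the ZnO 16 values were highest on replicates 2 and 3, the arrays with the lowest 75th percentile of signal. Without both of these arrays, a comparison chosen after the data were seen, limma still called the 4 genes higher, with differences of 0.76 for Atp6v0a1, 0.68 for Atp6v0b, 0.53 for Atp6v0c and 0.47 for Atp6v0d1 (adjusted p from 0.00729 to 0.0315). Of the 4, the Atp6v0c difference moved the furthest, to 0.53 without these arrays against 0.97 with them.

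In V1, Atp6v1a encodes the A subunit that binds and hydrolyses ATP, and it had the largest difference of the 10 genes. The brighter of its probes had levels of 0.71, 0.10, -0.09 and 0.48 at 16 µg/mL and of 1.98, 1.60, 2.06 and 2.07 at 4 µg/mL. No ZnO 16 array reached the lowest ZnO 4 array. The mean level was 0.30 ± 0.36 at 16 µg/mL and 1.93 ± 0.22 at 4 µg/mL, a difference of -1.62 (SE 0.19, 3.08-fold lower, adjusted p = 0.000106). Atp6v1b2 encodes the B subunit, the partner of A in the ATP-hydrolysing head. Its levels of 4.08, 4.27, 4.20 and 4.10 at 16 µg/mL overlapped those of 3.41, 3.89, 3.80 and 4.11 at 4 µg/mL, through ZnO 4 replicate 4. The difference was 0.36 (95% interval 0.03 to 0.69, adjusted p = 0.0765), and without ZnO 4 replicate 4 it was 0.47 (adjusted p = 0.0282).

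The A and B genes of the head thus differed between the doses by unequal amounts. The level of Atp6v1a minus that of Atp6v1b2 on the same array was -3.36, -4.17, -4.29 and -3.62 at 16 µg/mL and -1.43, -2.29, -1.74 and -2.04 at 4 µg/mL. The doses did not overlap in this quantity, which no scaling of arrays changes, and its mean differed by -1.99. It sets one probe's signal against another's, so its size cannot be read as a ratio of transcripts. The Atp6v1a level here is that of the brighter probe. The dimmer probe of the same transcript differed between the doses by -0.62, where the brighter one differed by -1.62. The direction of the change can thus be read, and its size depends on the probe.

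Atp6v1c1 encodes the C subunit of the outer stalk, whose binding is regulated when V1 and V0 assemble. Its levels of 1.78, 1.57, 1.70 and 2.05 at 16 µg/mL were all above those of 1.37, 0.88, 1.05 and 1.22 at 4 µg/mL. The Atp6v1c1 level averaged 1.77 ± 0.20 at 16 µg/mL and 1.13 ± 0.21 at 4 µg/mL, a difference of 0.65 (SE 0.15, 1.56-fold, adjusted p = 0.00611). Unlike the V0 genes, its ZnO 16 values were lowest on replicates 2 and 3, and without those arrays its difference was 0.78 (adjusted p = 0.0077). Atp6v1e1 encodes the E subunit of the peripheral stalks. It had levels of -1.06, -1.24, -1.62 and -1.09 at 16 µg/mL and of -0.29, -0.40, -0.49 and -0.29 at 4 µg/mL. Every ZnO 16 array was below every ZnO 4 array. The mean level was -1.25 ± 0.26 at 16 µg/mL and -0.37 ± 0.10 at 4 µg/mL, a difference of -0.89 (SE 0.16, 1.85-fold lower, adjusted p = 0.00157). Without ZnO 16 replicates 2 and 3 the difference was -0.71 for Atp6v1e1 and -1.33 for Atp6v1a, and both were still called lower.

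Atp6v1d encodes the D subunit of the central rotor, and its doses were close together. Its levels were 0.87, 0.78, 0.75 and 1.05 at 16 µg/mL and 0.76, 0.85, 0.73 and 1.07 at 4 µg/mL. The difference was 0.01 with a 95% interval of -0.27 to 0.29 (adjusted p = 0.947), so a change of the size seen for the V0 genes lay outside the interval at this scaling. Atp6v1h encodes the H subunit, which in yeast inhibits ATP hydrolysis by V1 that has come off V0. The brighter of its probes had levels of 1.51, 0.90, 1.23 and 1.60 at 16 µg/mL and of 1.20, 1.25, 1.37 and 1.69 at 4 µg/mL. The doses overlapped, and the difference was -0.07 (95% interval -0.46 to 0.32, adjusted p = 0.78).

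**Figure D2:**
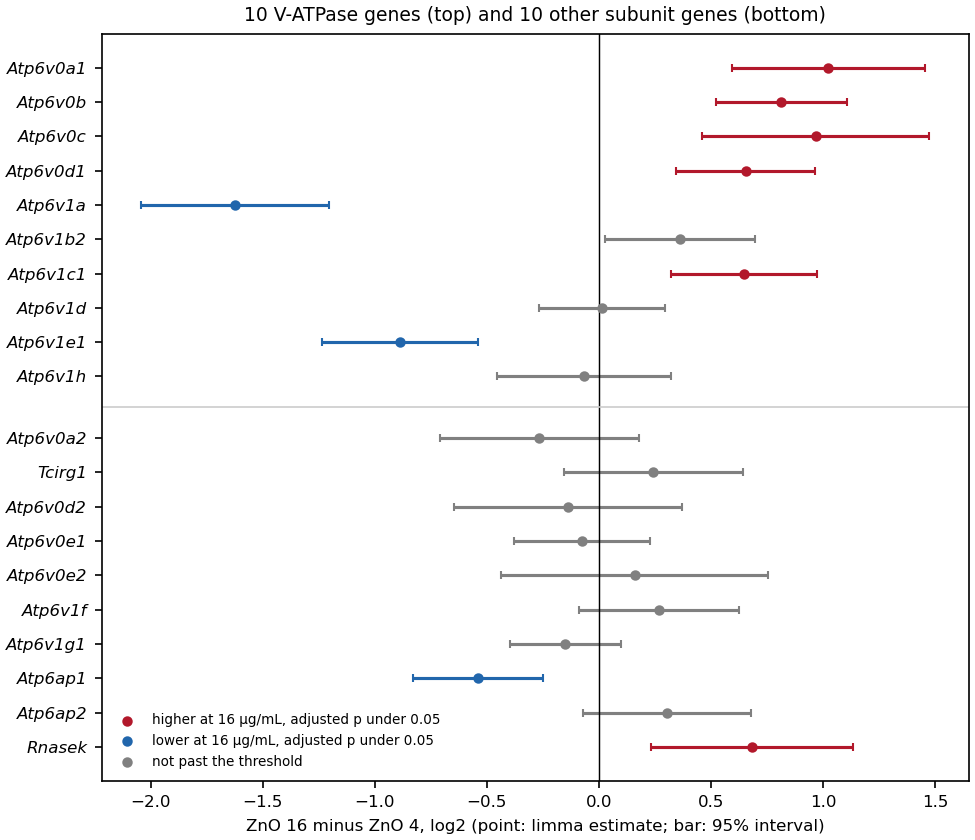
Difference ZnO 16 minus ZnO 4 on the log2 scale (x axis) for the 10 V-ATPase genes above the grey line and the 10 other tested subunit genes below it. Points are limma estimates and bars are 95% intervals; red is higher, blue is lower and grey is not past the threshold. The 4 V0 genes above the line lie between 0.65 and 1.02, and Atp6v1a lies furthest to the left at -1.62.

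The dimmer probe of each of the 3 genes with a pair was tested in a fit of all 15576 probes, of which 41.7% passed. For Atp6v0c, both probes of the same transcript were higher. The dimmer one had levels of 3.80, 4.53, 4.51 and 3.91 at 16 µg/mL, all above its levels of 2.92, 3.28, 2.84 and 3.50 at 4 µg/mL, a difference of 1.05 (SE 0.21, adjusted p = 0.00294). For Atp6v1a, both probes of the same transcript were lower, by unequal amounts. The dimmer one had levels of -2.51, -3.27, -3.20 and -2.69 at 16 µg/mL, all below its levels of -2.43, -2.34, -2.32 and -2.10 at 4 µg/mL, a difference of -0.62 (SE 0.22, adjusted p = 0.0432) where the brighter one differed by -1.62.

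For Atp6v1h the probes went apart. The dimmer one, which carries the accession of a predicted transcript, had levels of -0.05, -0.85, -0.52 and -0.41 at 16 µg/mL, all below its levels of 0.59, 0.44, 0.77 and 0.53 at 4 µg/mL. Its difference of -1.04 (SE 0.17, adjusted p = 0.00101) passed as lower, where the difference of -0.07 of the curated transcript's probe did not pass. With the mean over both probes Atp6v1h had a difference of -0.56 and passed as lower (adjusted p = 0.0195), so whether the gene differed between the doses depends on the probe. All 13 probes were well above background on all 8 arrays, and none of their spots was saturated, marked as an outlier or in an area of low signal. RefSeq lists pseudogene copies of Atp6v0c, Atp6v1a and Atp6v1e1, and whether a probe of these genes also reads a copy was not tested.

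**Figure D3:**
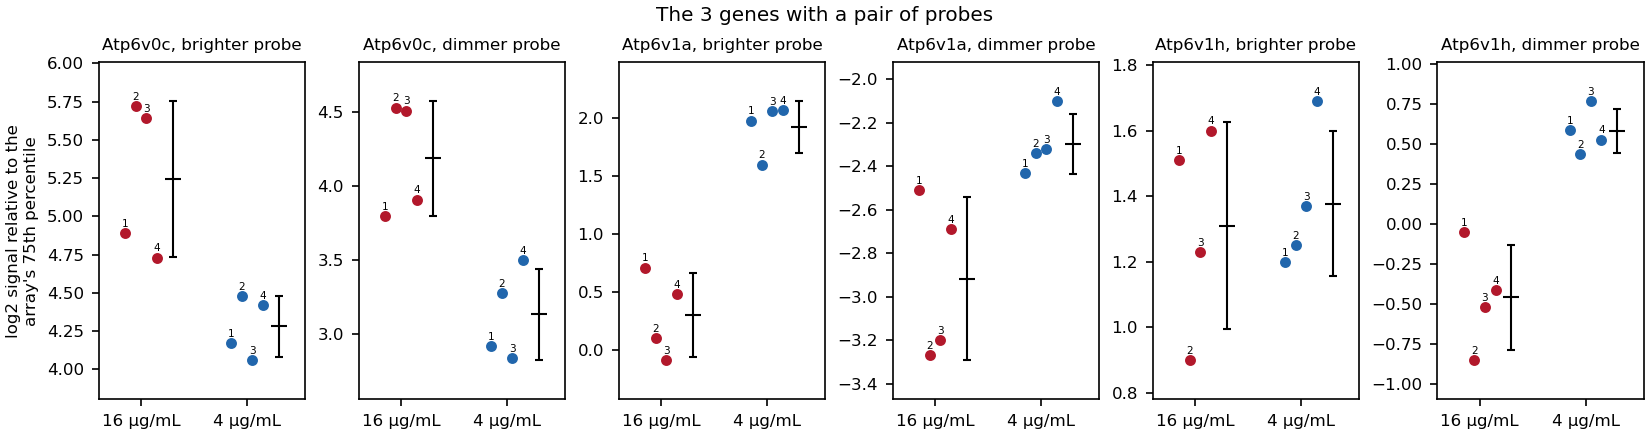
Levels on each array for both probes of Atp6v0c, Atp6v1a and Atp6v1h, with ZnO 16 µg/mL in red on the left and ZnO 4 µg/mL in blue on the right. The y axis, which differs between panels, is the log2 signal relative to the array's 75th percentile; bars are mean and SD (n = 4). The doses overlap only for the brighter Atp6v1h probe.

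The other subunit genes of the pump numbered 16, of which 15 had a probe and 10 were tested. Atp6v0a4, Atp6v1b1, Atp6v1c2, Atp6v1e2, Atp6v1g2 and Atp6v1g3 were not tested. Of the 10, 1 was higher and 1 was lower, beside 19.8% and 21.9% of all features, and the median difference was 0.04. With 10 genes these counts are no contrast with the shares of all features. Rnasek, a small V0-associated protein, had levels of 4.75, 5.28, 5.37 and 4.60 at 16 µg/mL and of 4.25, 4.41, 3.97 and 4.63 at 4 µg/mL. It passed as higher by 0.68 (SE 0.20, adjusted p = 0.0214) although the doses overlapped, and without ZnO 16 replicates 2 and 3 its difference was 0.36 (adjusted p = 0.155). The Rnasek call was also lost without any one of ZnO 16 replicates 2 and 3 and ZnO 4 replicates 1 and 3 (adjusted p from 0.0519 to 0.0656). Atp6ap1, an accessory subunit, had levels of 3.45, 3.32, 2.91 and 3.21 at 16 µg/mL, all below its levels of 3.79, 3.79, 3.82 and 3.64 at 4 µg/mL. It was lower, with a difference of -0.54 (SE 0.13, 1.45-fold lower, adjusted p = 0.00841), a call lost with scaling to the median (-0.37, adjusted p = 0.153).

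The 8 that did not pass had differences from -0.27 to 0.30. They include the other tested a-subunit genes, with a difference of -0.27 (95% interval -0.71 to 0.18) for Atp6v0a2 and of 0.24 (-0.16 to 0.64) for Tcirg1, the a-subunit gene of osteoclasts and of macrophage phagosomes. Whether Atp6v0a1 differed from these paralogs in its response was not tested. The second d-subunit gene, Atp6v0d2, had a difference of -0.14 (-0.65 to 0.37). The small V0 subunit genes Atp6v0e1 and Atp6v0e2 had differences of -0.07 (-0.38 to 0.23) and 0.16 (-0.44 to 0.76). In V1, Atp6v1f of the rotor had a difference of 0.27 (-0.09 to 0.62) and the stalk gene Atp6v1g1 one of -0.15 (-0.40 to 0.10), with an interval that at this scaling holds no difference as large as those of the V0 genes. Atp6v1g1 passed as lower without scaling between arrays (-0.90, adjusted p = 0.0493) and with spike-in scaling (-0.94, adjusted p = 0.0366), where the median difference of all features was -0.75 and -0.79. Atp6v1f passed as higher with normexp background correction, scaling to the median and quantile normalization (differences of 0.39, 0.44 and 0.34), and Tcirg1 with scaling to the median (0.41, adjusted p = 0.0325). Atp6ap2, the other accessory subunit, had a difference of 0.30 (-0.07 to 0.68), while its dimmer probe passed as higher by 1.71 (SE 0.60, adjusted p = 0.0415), with a ZnO 4 replicate 4 level of -4.18 against -1.42 to -0.77 on the other ZnO 4 arrays.

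Of 13 genes for assembly factors and regulators of the pump, 5 were tested, 2 of them higher and 2 lower, beside 19.8% and 21.9% of all features. Tmem199 and Ccdc115, which in human cells are needed to build V0, were both higher. Tmem199 had levels of -0.79, -0.67, -0.73 and -0.04 at 16 µg/mL, all above its levels of -1.80, -1.67, -1.52 and -1.77 at 4 µg/mL (difference 1.13, SE 0.19, adjusted p = 0.00101). Ccdc115 had levels of -2.08, -2.67, -2.55 and -1.96 at 16 µg/mL, all above its levels of -3.33, -3.19, -2.90 and -3.31 at 4 µg/mL (difference 0.87, SE 0.22, adjusted p = 0.0111). Neither passed without scaling between arrays or with spike-in scaling. Tm9sf2, a transmembrane protein of endosomes and the Golgi, was lower, with a difference of -1.21 (SE 0.26, adjusted p = 0.00481) and well above background on 3 of 4 ZnO 16 arrays. With normexp the Tm9sf2 difference was -0.37 (adjusted p = 0.0775). Oxr1, whose yeast counterpart promotes disassembly of the pump, passed as lower (-0.67, SE 0.22, adjusted p = 0.0345) with overlapping doses, and lost that call with normexp (-0.27, adjusted p = 0.214), with scaling to the median, with no filter on dim probes and with the mean over its probes (adjusted p from 0.0618 to 0.161). The Oxr1 call was also lost without any one of ZnO 16 replicates 1, 2 and 3 and ZnO 4 replicates 1, 3 and 4 (adjusted p from 0.0571 to 0.0996). Without ZnO 16 replicates 2 and 3 together it was lost as well (-0.56, adjusted p = 0.149). Rogdi did not pass, with a difference of 0.38 (adjusted p = 0.0551).

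The Ragulator, the Rag GTPases and mTOR sit on the lysosome with the V-ATPase and sense amino acids there. Of 16 such genes 13 were tested, 5 of them higher and 1 lower, beside 19.8% and 21.9% of all features, with a median difference of 0.15 against 0.005 over all features. Fnip2, named with its values already seen, was not called through its brightest probe, of a predicted transcript (0.16). In the fit of all probes, both its dimmer probes, of a curated transcript, passed as higher (1.23, and 0.67 with overlapping doses). Whether Fnip2 differed thus depends on the probe. Flcn, folliculin, which acts on the Rag GTPases, had levels of 4.27, 4.78, 4.85 and 4.13 at 16 µg/mL, all above its levels of 2.98, 3.21, 3.35 and 3.12 at 4 µg/mL (difference 1.34, SE 0.18, 2.53-fold, adjusted p = 0.000255). Lamtor1, which anchors the Ragulator to the membrane, was higher by 0.91 (SE 0.13, adjusted p = 0.000462), and the second probes of both genes were higher too (1.24 for Flcn and 0.96 for Lamtor1). Lamtor3, another Ragulator subunit, was higher by 1.73 (SE 0.49, adjusted p = 0.0179), but its ZnO 4 replicate 4 spot lay in an area of low signal, and without that array the difference was 1.11 (adjusted p = 0.000565). Without ZnO 16 replicates 2 and 3 it was 1.65 and did not pass (adjusted p = 0.0791). None of these 3 calls held without scaling between arrays or with spike-in scaling. The other 2 that were higher, named with their values already seen, were Lamtor4 (0.42, adjusted p = 0.032) and Rheb (0.72, adjusted p = 0.00106), the GTPase that activates mTOR. Both lost their calls in those same 2 settings. Lamtor4 also lost its call without any one of ZnO 16 replicates 1 and 2 and ZnO 4 replicates 1 and 3 (adjusted p from 0.0569 to 0.0888). The same held without ZnO 16 replicates 2 and 3 together (0.40, adjusted p = 0.0794) and with normexp (0.29, adjusted p = 0.136). It held too with no filter on dim probes (adjusted p = 0.0697) and with no intensity trend in limma (adjusted p = 0.0545). The 1 lower gene, Mtor, the kinase itself, was well above background on 2 of 4 ZnO 16 arrays and on all 4 ZnO 4 arrays, so it entered the test only through the dose at which it was brighter. Its fitted difference of -1.15 (adjusted p = 0.00415) rests on signals near background, and with normexp it was 0.0062 (adjusted p = 0.984).

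Of 17 genes for ion channels and exchangers of endosomes and lysosomes 13 were tested, 4 of them higher and 1 lower, beside 19.8% and 21.9% of all features, with a median difference of 0.20. Cln3, the membrane protein lost in juvenile Batten disease, had levels of -1.51, -0.90, -0.76 and -1.39 at 16 µg/mL, all above its levels of -2.63, -2.12, -2.20 and -2.31 at 4 µg/mL (difference 1.17, SE 0.21, adjusted p = 0.00171). Tpcn1, a cation channel, was well above background on all 4 ZnO 16 arrays and on 2 of 4 ZnO 4 arrays, so it entered the test only through the dose at which it was brighter. Its fitted difference of 1.32 (adjusted p = 0.00451) rests on signals near background at 4 µg/mL, and it did not pass with normexp (0.59, adjusted p = 0.0555). Clcn7, the chloride-proton exchanger of lysosomes, passed as higher by 0.86 (SE 0.25, adjusted p = 0.0194) with overlapping doses. That Clcn7 call was lost without ZnO 16 replicate 3, ZnO 4 replicate 1 or ZnO 4 replicate 3 (adjusted p from 0.0546 to 0.0589) and without ZnO 16 replicates 2 and 3 together (0.70, adjusted p = 0.11). As for the V0 genes, the calls of Cln3, Tpcn1 and Clcn7 were lost without scaling between arrays and with spike-in scaling. The fourth, named with its values already seen, was the potassium channel gene Tmem175 (0.79, adjusted p = 0.0139), whose call was lost in the same 2 settings and without ZnO 16 replicates 2 and 3 (0.48, adjusted p = 0.102). The 1 lower gene, Mcoln2, a TRPML cation channel, was well above background on 2 of 4 ZnO 16 arrays and on all 4 ZnO 4 arrays and likewise entered the test only through the brighter dose. Its fitted difference of -1.13 (adjusted p = 0.016) rests on signals near background, and the call was lost with normexp (-0.22), with scaling to the median (-0.96, adjusted p = 0.0635) and without ZnO 16 replicates 2 and 3 (-0.60, adjusted p = 0.0872).

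The TFEB family of transcription factors drives lysosomal genes through the CLEAR element. Limma called 0 of its 4 genes, beside 41.7% of all features, and so few genes give no contrast with that share. Of the 4, Tfeb had the smallest limma p before adjustment, 0.039. Tfeb had levels of -0.74, 0.14, 0.13 and -0.92 at 16 µg/mL and of -0.85, -0.92, -1.20 and -0.80 at 4 µg/mL, with ZnO 16 replicates 2 and 3 above all other arrays. Its difference was 0.59 (SE 0.25, adjusted p = 0.0815). It passed as higher with scaling to the median (0.76, adjusted p = 0.0088) and without ZnO 16 replicate 4 (0.79, adjusted p = 0.0218), and was 0.11 without ZnO 16 replicates 2 and 3. Tfe3 had a difference of -0.30 (adjusted p = 0.164) and passed as lower without those 2 arrays (-0.54, adjusted p = 0.0247) and with normexp, without scaling between arrays and with spike-in scaling. Tfec had a difference of -0.10 (adjusted p = 0.805). Mitf had a difference of 0.33 (SE 0.76), with levels from -1.27 to 3.01 on the ZnO 16 arrays, and the difference of its other probe was -0.05 (SE 0.17).

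The features most like Atp6v1a over the 8 arrays were sought by the Euclidean distance between profiles centred on their means, among 7908 tested features with a symbol outside the V-ATPase genes. They were Ubr7 at a distance of 0.344, Tdg at 0.381 and Sec14l1 at 0.393. Ubr7 had levels of -0.13, -0.89, -0.93 and -0.58 at 16 µg/mL and of 0.80, 0.56, 0.87 and 1.1 at 4 µg/mL, so that its ZnO 16 values were also lowest on replicates 2 and 3. The differences were -1.47 for Ubr7, -1.73 for Tdg and -1.58 for Sec14l1. The distance takes in all 8 arrays, so differences near that of Atp6v1a and a like order of arrays follow from the choice. The likeness is a description over arrays that share slide, scan and dose.

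**Figure D4:**
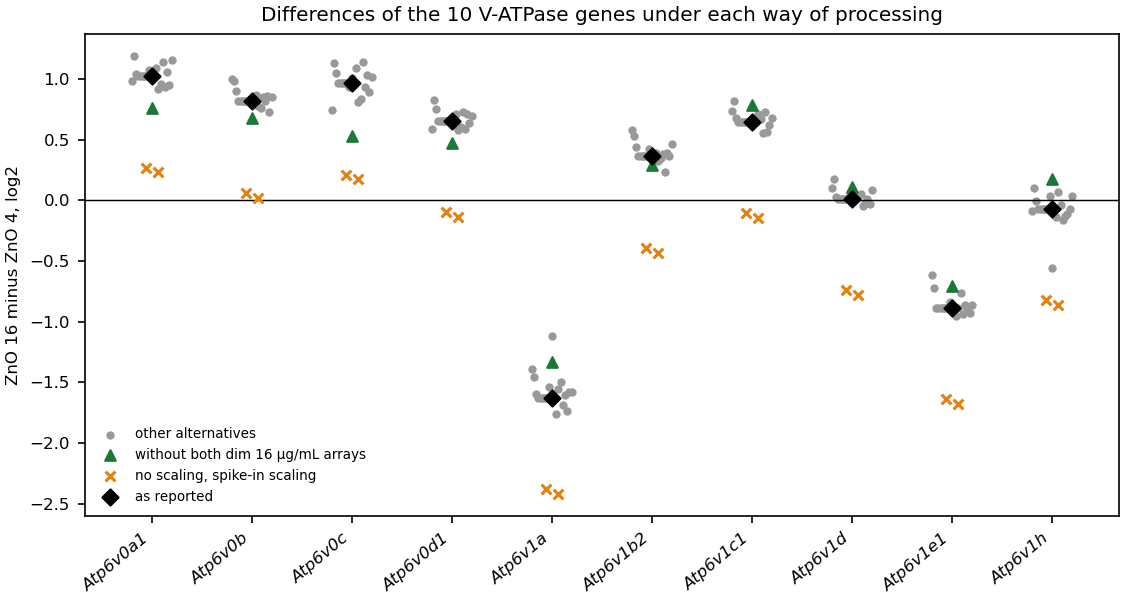
Difference ZnO 16 minus ZnO 4 on the log2 scale (y axis) of the 10 V-ATPase genes under each way of processing. Black diamonds are the reported values, grey points other alternatives, green triangles the fit without ZnO 16 replicates 2 and 3, and orange crosses no scaling or spike-in scaling. The crosses lie near 0 for the V0 genes, between -0.14 and 0.27, and at -1.64 or below for Atp6v1a and Atp6v1e1.

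Between 41.1% and 47.8% of spots were well above background on an array. Of 14 macrophage markers, 11 stood clear of background on every array, and Adgre1, Marco and Cd163 did not. None of 10 epithelial markers and none of 6 neutrophil markers with a probe did, while Dcn of 7 fibroblast markers and Pecam1, Cdh5 and Vwf of 6 endothelial markers did. Of 7 lymphocyte markers with a probe, Cd4 did so on all ZnO 16 arrays, and Cd3d and Cd4 on all ZnO 4 arrays. In bulk cultures a lower level from fewer cells of a kind and from less RNA per cell cannot be told apart. Areas of low signal covered 4.41% of the spots of ZnO 4 replicate 4 and at most 0.55% on any other array.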

How the data were processed

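Labelled Cy3 cRNA of 8 cultures was hybridised to 1-colour Agilent rat arrays, per the labels' protocols. The submitters' processing notes name Agilent Feature Extraction 11.0.1.1. Its processed signal, the deposited intensity, is corrected for background and for trends across the array but is not scaled between arrays, per the file headers. Further deposited columns, control types, raw median intensities, accessions and flags, are of other kinds and served to select, match and correct spots, per the file headers.

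Each array had 62976 spots, of which 58717 were not controls. The log2 of the intensity minus each array's 75th percentile over these spots was used. Spots flagged as non-uniform or as outliers were set to missing, and spots of a probe were averaged. Probes stayed in if 3 or more of the 4 arrays of either dose were well above background, and the brightest probe by mean stood for its gene. Accessions of 21109 of 45598 probes matched a RefSeq table of assembly GRCr8, used for names, since the file headers name an older build, and for the promoter windows. Doses were compared with limma 3.58.1 in R 4.3.3 (lmFit, eBayes with an intensity trend, two-sided), adjusted over all features with a threshold of 0.05, after a test on simulated data. The number of arrays limits the precision.

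The V-ATPase genes and all lists were chosen with earlier results of these data known. The rule for named genes takes all V-ATPase genes and other measured subunits, the TFEB family, up to 3 called genes a direction in each other list and the 3 profiles most like the gene with the largest difference. Replicate numbers occur in both doses, but the deviations of same-numbered arrays correlated at 0.248, 0.404, -0.22 and -0.029, so they were not taken to pair the samples. Alternatives were 22 in number and covered background correction, scaling, filters, probe choice, variance models, a replicate block and left-out arrays.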

Additional observations from a re-analysis of the deposited data

Results flagged for a closer look

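Of the 84 groups of 4 values checked, 5 held a value far from the other 3 by Dixon's ratio, where chance gives about 1 in 20, and none of them belonged to the 10 V-ATPase genes. The Tmem199 level on ZnO 16 replicate 4 was -0.04, against -0.79 to -0.67 on the other ZnO 16 arrays. The remaining 4 were ZnO 4 values, 3 of them on replicate 4. The Lamtor3 level on ZnO 4 replicate 4 was -2.50, against -0.12 to 0.14 on the others, and its spot lay in an area of low signal. The Mitf level on that array was -0.26, against 1.18 to 1.42, and the Atp6ap1 level was 3.64, against 3.79 to 3.82. The Atp6v0a2 level on ZnO 4 replicate 1 was -2.30, against -1.91 to -1.85.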

How the results depend on the processing

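Over 22 alternatives, Atp6v1a and Atp6v1e1 passed as lower in all, and the 4 V0 genes and Atp6v1c1 passed as higher in 20. The 2 exceptions were no scaling between arrays and spike-in scaling. There, 2 V-ATPase genes passed in each, 0 of them higher, against 7 as reported, 5 of them higher. Over all features 2672 were higher and 2942 lower as reported. No scaling gave 230 and 4412 features in these directions, and spike-in scaling gave 228 and 4975. Scaling to the median gave 3408 higher and 1979 lower, and normexp gave 2781 and 1996. Called differences that changed sign without scaling and with spike-in scaling were those of Atp6v0d1 (-0.0996 and -0.138), Atp6v1c1 (-0.108 and -0.147), Rnasek (-0.0718 and -0.11), Lamtor4 (-0.331 and -0.369) and Rheb (-0.0312 and -0.0698), none of which passed there. The Tmem175 difference was -0.0059 with spike-in scaling. The Mtor difference was 0.0062 with normexp. The cause of these changes was not tested beyond the shift of all features by -0.75 and -0.79, relative to which the 5 higher V-ATPase genes differed by 0.64 to 1.02. Leaving out 1 array at a time gave 4421 to 5578 features and 7 or 8 V-ATPase genes past the threshold. With both ZnO 16 arrays of lowest signal left out, an alternative chosen after seeing the data, the counts were 4641 and 7. With the replicate number as a block, 5471 features passed, 2593 higher and 2878 lower, and 7 V-ATPase genes, 5 higher and 2 lower. The block changed no call among the 42 genes whose calls were followed through the alternatives. Atp6v1b2 passed as higher in 5 alternatives, and Atp6v1h as lower in 1. Signal near background limits Mtor, Mcoln2, Tm9sf2 and Tpcn1, each dim on at least 1 array of a dose.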
